A study of Mus musculus with 2 samples.

Results

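The genes described here encode proteins that repair DNA or signal its damage. They are 31 genes, matched by the gene name printed for each probe in the array files, and all 31 were on the arrays, with 80 of the 56605 probes outside the controls. They were sorted by role into end joining (5 genes), recombination (6), mismatch repair (3), nucleotide excision repair (7), base excision and single-strand break repair (5) and damage signalling (5). Total RNA from mouse blood was hybridised to 2 single-colour Agilent arrays, of which 1 took RNA from heated blood and 1 from its control. The heat group had a pretreatment at 37 °C, lasting 1 h in a water bath, followed by 1 h at 38.5 °C, and the labels do not say whether animals or drawn blood were heated. For the control, neither temperature nor duration was recorded, and strain, genotype and age are missing for both groups, so heating, pretreatment and handling cannot be told apart. Red cells had been lysed and globin RNA removed from both. The treatment protocol speaks of 3 replicates for each line, and whether an array holds 1 sample or a pool was not stated. With 1 array a group, no difference below has a replicate check or a p-value.

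Breaks through both DNA strands are rejoined either directly, by end joining, or by copying an intact sister sequence, in recombination. Wrong or damaged bases on 1 strand are removed by mismatch, nucleotide excision or base excision repair, and the kinases ATM and ATR halt the cell cycle while repair proceeds. In blood cells these pathways matter most in dividing precursors and in lymphocytes, whose receptor genes are assembled by end joining.

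Each probe is a DNA strand of 60 letters on the array. The following 5 probes are shown because the results turn on them and because each covers more of the mm9 genome than its own length, so that it bridges at least 1 splice junction. They lie at chr1:72430014-72430320 (Xrcc5, plus strand), chr1:182530341-182530639 (Parp1, plus strand), chr16:15839317-15841922 (Prkdc, plus strand), chr13:93019869-93026684 and chr13:93115018-93116708 (Msh3, minus strand). Sequences are written 5′ to 3′ as deposited, in lower case because no letter is singled out. Whether a probe lies in a coding or an untranslated part was not analysed here.
Xrcc5 probe: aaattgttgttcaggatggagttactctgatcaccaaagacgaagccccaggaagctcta
Parp1 probe: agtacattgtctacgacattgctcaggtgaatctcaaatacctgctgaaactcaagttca
Prkdc probe: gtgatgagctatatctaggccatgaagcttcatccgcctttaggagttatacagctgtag
Msh3 probe, positions from 93019869: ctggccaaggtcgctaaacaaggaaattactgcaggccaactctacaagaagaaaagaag
Msh3 probe, positions from 93115018: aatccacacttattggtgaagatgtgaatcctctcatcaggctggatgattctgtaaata

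The repair genes were expressed on both arrays and none of those measured differed by 2-fold. Of the 31, 30 had a usable probe well above background on each array, and Parp1 did not because its spot on the heat array was left out. Each difference is a log2 value, heat minus control, after each array was scaled to its 75th percentile, and a gene's value is the mean over its usable probes. They ran from -0.37 (Xrcc5) to 0.27 (Xpa), and 0 of 30 genes passed 2-fold. Of all 18562 genes measured, 0.663% did, with 0.21% higher and 0.453% lower. Only Xrcc5 and Xpa lay at least 0.25 from 0, against 8.72% of all genes lower by that much and 9.18% higher by it. The median over the 30 was -0.060, against 0.008 over all genes, but with dim probes kept it was -0.063 against -0.099, so that the repair genes then had the higher median. Of the 30, 21 lay below 0 and 9 above, which is 70.0% below 0, where 47.8% of all genes did (66.7% against 64.1% with dim probes kept).

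Most of these differences were of the size that repeated spots and probes show. Spots of probes printed several times gave an SD of 0.082 for a single-spot difference over 285 probes. This SD came mainly from bright probes. It was 0.074 at a log2 signal of 10 or more, 0.12 between 7 and 10 (5 probes) and 0.20 below 7 (11 probes). Of the 30 genes, 15 lay within 1 such SD of 0 (50%, against 41.5% of all genes) and 8 lay more than 2 SDs away (26.7%, against 32.4% of all genes). Different probes of 1 member disagreed with an SD of 0.11 over 59 probes of 21 genes, and those of all genes with an SD of 0.19. The scanner software also gives each spot an error. By that measure, 11 of 68 usable member probes differed by more than their error (16.2%, against 21.6% of all single-spot probes). By each of these measures the share of clearly separated repair genes or probes was at or below that of the whole array. The shares of genes are not like for like, because the spot SD is for 1 spot and gene values average several probes. The 30 members had 68 usable probes, and the 18562 genes had 28755.

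**Figure D1:**
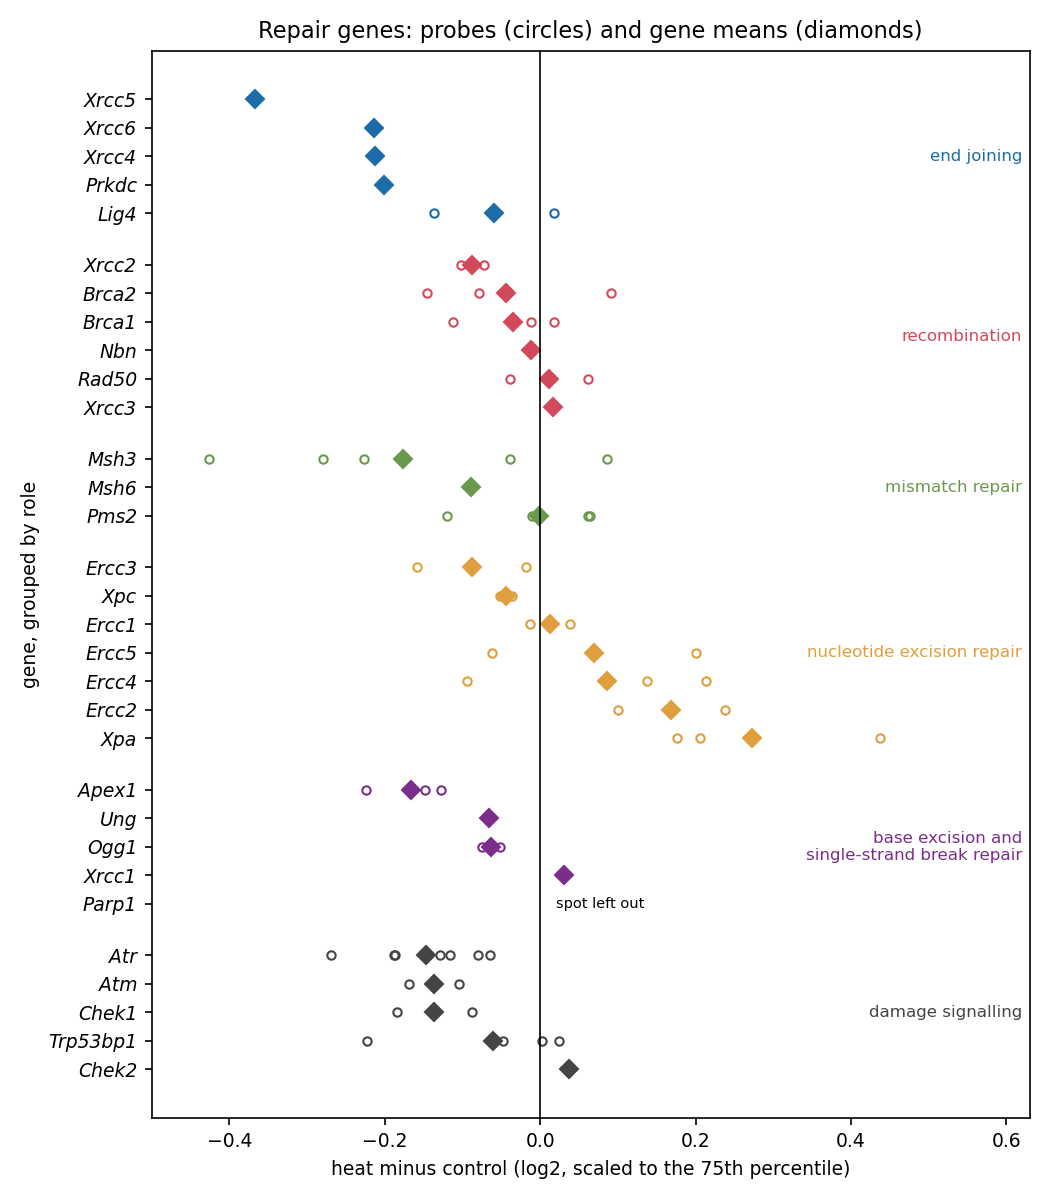
Heat minus control on the log2 scale for each repair gene, grouped by role, with usable probes as open circles and gene means as diamonds. All 5 end joining genes lie left of 0, 5 of the 7 nucleotide excision repair genes lie right of it, and Parp1 has no usable spot.

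End joining had the lowest values. Its 5 genes were all below 0, with a median of -0.21 and a range of -0.37 to -0.060. The Ku subunits, which clamp onto broken ends, are encoded by Xrcc5 and Xrcc6. The Xrcc5 probe had a processed signal of 150 with heat and 198 in the control, with scanner errors of 15.8 and 20.8. This is a difference of -0.37, or 1.29-fold lower, and 4.60% of all genes lay lower still. Xrcc6 had signals of 6937 (heat) and 8267 (control), a difference of -0.21. Both Ku genes were thus dimmer on the heat array, each by more than the scanner's error of its difference (0.21 for Xrcc5 and 0.20 for Xrcc6), but each rests on 1 probe.

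Prkdc encodes the catalytic subunit of the DNA-dependent kinase that Ku recruits. Its usable probe had signals of 554 (heat) and 654 (control), a difference of -0.20, and its other probe did not clear background on either array. With dim probes kept, Prkdc was -0.39 and lay below Xrcc5. Xrcc4 and Lig4 encode the complex that seals the ends. The probes of Xrcc4 had signals of 927 against 1101 and of 54.0 against 64.4 (heat against control), and their differences were -0.21 and -0.21. Lig4 was nearer 0, at -0.060, and its probes had opposite signs (0.018 and -0.14). The share of all genes lying below Xrcc6, Xrcc4 and Prkdc was 11.0%, 11.2% and 12.1%, so values of this size were common on these arrays.

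Accessory end joining genes did not have lower values. All 6 that were listed as other genes of the pathway lay above 0, with a median of 0.060. They run from Nhej1, which encodes a partner of the XRCC4 complex, at 0.015 (signals of 1398 and 1422, heat and control) to Dclre1c, which encodes the nuclease Artemis, at 0.13. The probes of Dclre1c ranged from -0.092 to 0.43. The opposite signs of the core and the accessory genes were seen after the values were known and were not tested.

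The recombination genes lay close to 0. The median of the 6 was -0.024, with 4 below 0 and 2 above. Brca1, which helps to start recombination at breaks, had signals of 3189 (heat) and 3301 (control) at its brightest probe. Its mean over 3 probes was -0.035, and the probes ranged from -0.11 to 0.018. Brca2, which acts at the strand-exchange step of recombination, had 1985 and 2152 at its brightest probe, a mean of -0.045 and probes from -0.15 to 0.091. In each of the 2 genes the probes disagreed in sign, so no direction can be read.

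Rad50 and Nbn encode subunits of the complex that first holds a broken end. Rad50 had signals of 2754 (heat) and 2710 (control) at its brighter probe and a difference of 0.012 over its probes. Nbn had 558 and 578, a difference of -0.012. Xrcc2 and Xrcc3, which also act at strand exchange, differed by -0.087 and 0.016. The 2 probes of Xrcc2 were both below 0, and the single probe of Xrcc3 had signals of 764 and 776. Of the other recombination and Fanconi anaemia genes listed, 29 were measured, 11 above 0 and 18 below, with a median of -0.027. The highest was Fancc of the Fanconi core complex at 0.19, with both probes at 0.19. None of the 29 was 0.25 away from 0, where 9.18% of all genes were higher by that much and 8.72% lower.

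Mismatch repair genes lay below 0, with a median of -0.090 over the 3. MSH6 and MSH3 take part in recognising copying errors, MSH6 for single mismatches and MSH3 for longer loops, and PMS2 takes part in cutting the new strand. Msh6 had signals of 6501 (heat) and 7106 (control), a difference of -0.090. Msh3 had a mean of -0.18, the lowest of the 3, but its 5 probes spread from -0.43 to 0.086. The 2 junction-spanning probes shown above gave -0.43 (signals of 176 and 244) and -0.23 (101 and 122), whereas its brightest probe gave -0.039 (2721 and 2871). The size of the Msh3 value therefore depends on the probe read, and with the brightest probe alone it was -0.039.

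Pms2 differed by -0.001 over 4 usable probes of 9, which ranged from -0.12 to 0.065. Its brightest probe had 1386 (heat) and 1361 (control). With dim probes kept, Pms2 was 0.25. A further 2 Pms2 probes cleared background only with heat, with signals of 44.4 against 16.4 and of 30.7 against 24.2, and have no measured difference. Among 5 other mismatch repair genes, 4 lay below 0. Msh5, a meiotic relative, was the highest at 0.31, with probes at 0.018 and 0.60.

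Nucleotide excision repair was the only role whose median lay above 0, at 0.069 over 7 genes, of which 5 were above 0. The pathway removes bulky damage such as that left by ultraviolet light. Xpa, which encodes the protein that checks the damage before it is cut out, was the highest measured repair gene at 0.27, or 1.21-fold. Some other settings ranked it lower. With dim probes kept, Ercc5 was higher at 0.33. Among the brighter 50% of detected probes, Ercc2 was higher (0.24, against 0.19 for Xpa). With the brightest probe per gene, Ercc2 (0.24) and Ercc5 (0.20) were higher than Xpa (0.18). With outlier spots kept, Parp1 was higher at 1.49. The 3 Xpa probes had signals of 3544 against 3222, 1085 against 966 and 113 against 85.9 (heat against control), with differences of 0.18, 0.21 and 0.44. Every Xpa probe was brighter on the heat array, and 92.2% of all genes lay lower than Xpa. Xpc, which encodes the protein that first finds the damage, differed by -0.044, with both probes below 0.

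Ercc2 and Ercc3 encode the helicases of the TFIIH complex, which open the DNA around the damage. Ercc2 had a difference of 0.17, with both probes above 0 and signals of 2283 (heat) and 1989 (control) at the brighter. Ercc3 had -0.088, with both probes below 0 and signals of 5427 and 5647 at the brighter. The 2 helicase genes thus lay on opposite sides of 0. The nucleases that make the cuts are encoded by Ercc1 with Ercc4, and by Ercc5. Ercc1 differed by 0.012 (2117 and 2118 at the brighter probe), Ercc4 by 0.086 and Ercc5 by 0.069. Probes of Ercc4 ran from -0.094 at the brightest (2240 and 2456) to 0.21, and those of Ercc5 from -0.062 to 0.20.

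With only the brighter 50% of detected probes, the median of this role was -0.012, on the other side of 0. Of 16 other genes of the pathway, 7 lay above 0 and 9 below, with a median of -0.007. Gtf2h1, a TFIIH subunit gene, was the highest at 0.24, with all 3 probes between 0.18 and 0.29. Ercc6, which encodes the factor that starts repair at a stalled RNA polymerase, was the lowest at -0.35, on 1 probe.

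Base excision and single-strand break repair had a median of -0.065 over 4 measured genes. Ogg1 encodes the enzyme that removes oxidised guanine and Ung the enzyme that removes uracil from DNA. Ogg1 differed by -0.064, and its 2 usable probes lie at the same place, chr6:113284105-113284164, and differ at 3 of 60 letters. They gave -0.052 and -0.075. Ung had signals of 42809 (heat) and 46027 (control), a difference of -0.066. Its only probe, the brightest of all member probes, ends in a long run of the repeated letters gt. Whether that probe reads Ung alone was not tested. Apex1, which encodes the enzyme that cuts the strand where a base is missing, was the lowest of the role at -0.17. Its probes had 10243 against 11657, 9661 against 10842 and 260 against 312, and all 3 were dimmer on the heat array. Xrcc1, the scaffold that gathers the repair enzymes, differed by 0.030 (7440 and 7484). Of 17 other genes, 8 lay above 0 and 9 below, with a median of -0.032. They ran from Nthl1, a glycosylase for oxidised bases, at -0.24 to Neil3, another glycosylase, at 0.19.

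Parp1 encodes the sensor of strand breaks that marks proteins with ADP-ribose, and its higher processed signal rested on an uneven spot. Its only probe had processed signals of 6976 (heat) and 2548 (control), a ratio of 2.74 and, after scaling, a log2 difference of 1.49. It would be the only repair gene past 2-fold. The scanner software flagged the heat spot as non-uniform, as it did 11 of the 59305 non-control spots there, against 2 in the control. Over the 42 pixels of the spot, the raw signal had a mean of 6978, a median of 2640 and an SD of 7367. The control spot also had 42 pixels, whose mean was 2675, median 2657 and SD 251. The medians of the 2 spots thus differed by -0.009 on the log2 scale, whereas the mean of the heat spot was 2.64 times its own median. The SD over pixels was 106% of the mean in that spot and at most 34.4% in the other 79 member spots of the heat array. No difference is given for Parp1 in the counts above.

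**Figure D2:**
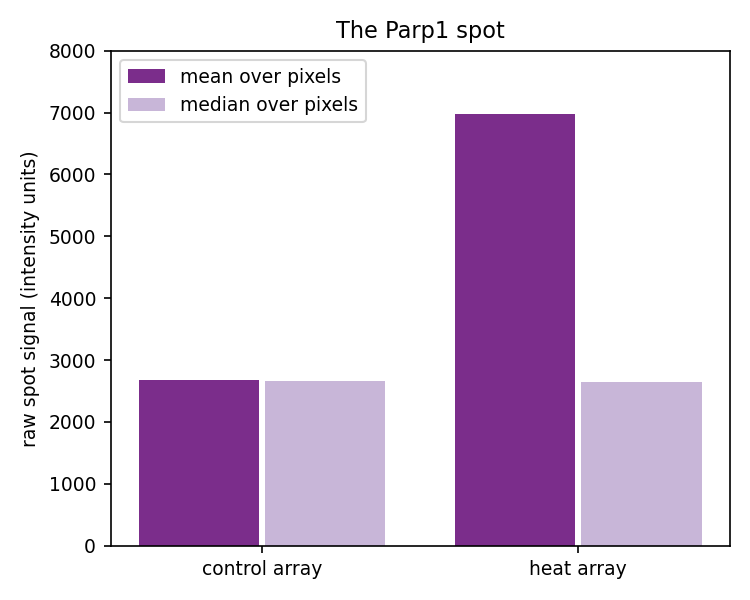
Raw signal of the single Parp1 spot on each array, in intensity units, as the mean (dark bars) and the median (pale bars) over its 42 pixels. The means are 2675 and 6978 on the control and heat arrays, but the medians are 2657 and 2640.

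**Figure D3:**
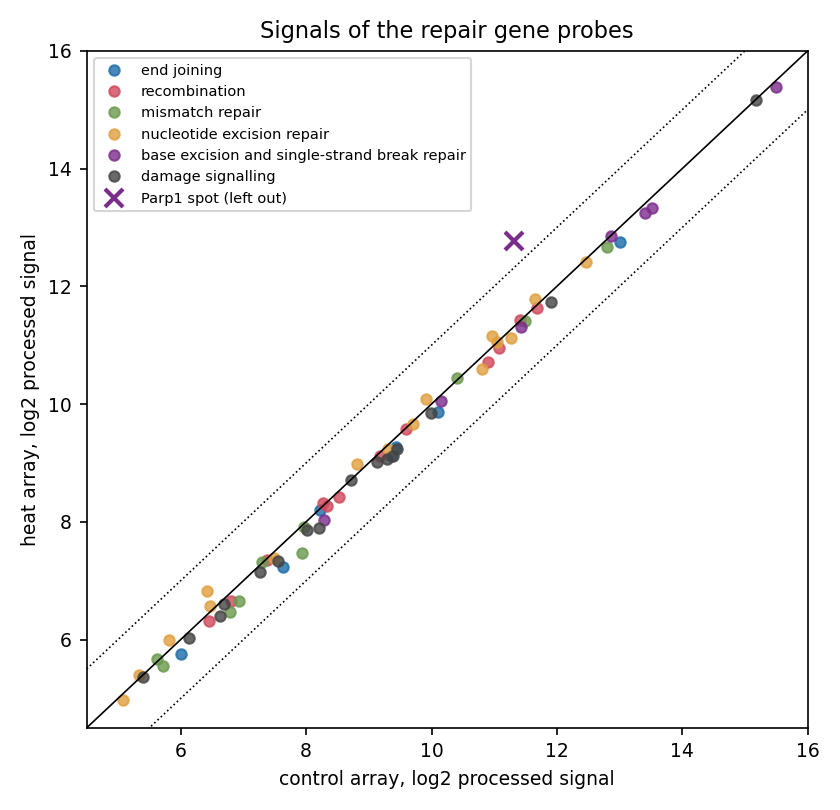
Log2 processed signal of every usable repair gene probe on the heat array against the control array, coloured by role, with the line of equality (solid) and 2-fold lines (dotted). All 68 usable probes lie inside the 2-fold lines, and the cross above them is the Parp1 spot that was left out.

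Damage signalling genes had the second lowest median, -0.14 over 5 genes, of which 4 lay below 0. Atm and Atr encode the kinases that respond to double-strand breaks and to exposed single strands. Atm had signals of 606 against 700 and 921 against 1017 (heat against control), with a mean difference of -0.14. Atr had 7 usable probes of 8, all of them below 0, between -0.27 and -0.064, with a mean of -0.15. The brightest Atr probe, on a RefSeq record, had 3397 and 3815 (heat and control). The other usable Atr probes are matched to separate Ensembl records and were dimmer, with control signals of 70.1 to 294. Chek1, the kinase downstream of ATR, had -0.14, with signals of 539 against 628 and 515 against 563. Every usable probe of Atm, Atr and Chek1, 11 in all, lay below 0. Of all usable member probes 69.1% did, and of all measured probes 48.2%. Atm, Atr and Chek1 were set apart from the rest of the role by the sign of their probes. In addition, 7 of the 11 probes are of Atr and all share the same arrays. The count of 11 is therefore no test against these shares. Only 1 of the 11, an Atr probe, lay below 0 by more than its scanner error.

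Chek2, the kinase downstream of ATM, had signals of 418 (heat) and 419 (control) on its single probe, a difference of 0.038. Trp53bp1, which encodes a protein that steers breaks toward end joining, differed by -0.061. Its 4 usable probes ran from -0.22 (555 and 665) to 0.024, the latter at the brightest probe (36806 and 37177), so its sign depended on the probe. That brightest probe is matched to an Ensembl record and the other usable ones to a RefSeq record. Whether they read the same transcript was not tested. With dim probes kept, Trp53bp1 was -0.31. Of 19 other signalling genes measured, 10 lay above 0 and 9 below, with a median of 0.029. Rad1, part of the clamp that activates ATR, was the lowest at -0.26, with its 3 probes between -0.44 and -0.14. Cdc25b, a phosphatase that drives entry into mitosis, was the highest at 0.17. Atm, Atr and Chek1 thus lay below 0. Chek2 and the median of the other signalling genes lay above it, but by less than the SD of 0.082 for a single-spot difference. The scaling added 0.039 to every heat minus control difference, and the value of Chek2 was of that size, so no contrast with Chek2 can be read.

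The other genes of the same pathways, listed by role but with earlier results of these data known, were nearer the array as a whole. Of 93 on the arrays, 92 were measured, 43 above 0 and 49 below (53.3% below 0), with a median of -0.010. None of the 92 differed by 2-fold, as 0.663% of all genes did. By at least 0.25, 1 was higher and 2 lower, against 9.18% and 8.72% of all genes. By role their medians were 0.060 for end joining, -0.027 for recombination, -0.080 for mismatch repair, -0.007 for nucleotide excision repair, -0.032 for base excision repair and 0.029 for damage signalling. Among the roles whose members lay below 0, mismatch repair, recombination and base excision repair also did so in the wider list, while end joining and damage signalling did not.

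**Figure D4:**
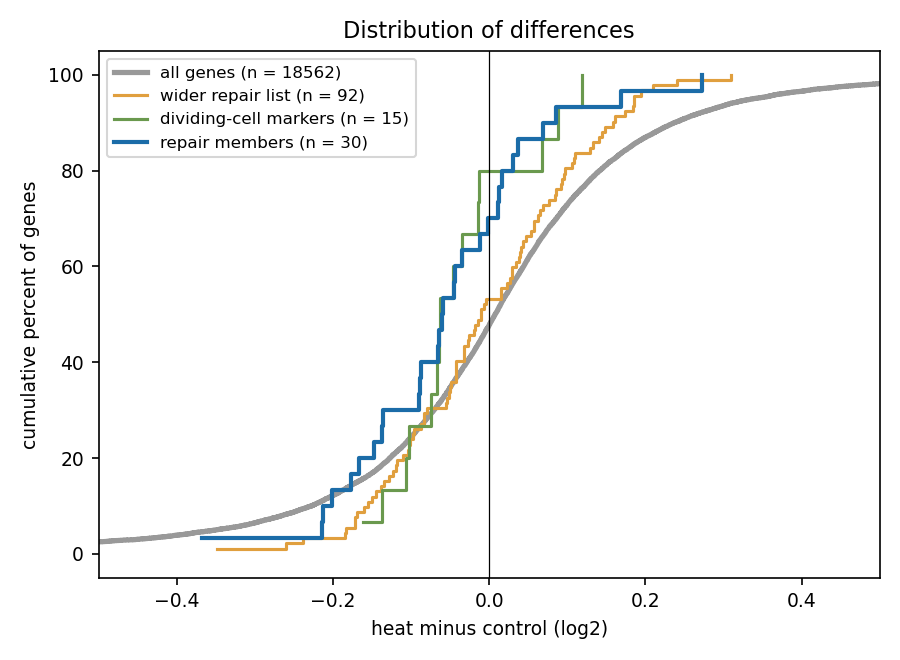
Cumulative percent of genes against heat minus control (log2) for the 30 measured repair genes, the 92 genes of the wider list, 15 markers of dividing cells and all 18562 genes. Around 0, the repair genes and the markers of dividing cells lie left of the all-gene curve, with medians of -0.060 and -0.063, and the wider list runs close to it.

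Markers of dividing cells had a median close to that of the repair genes. Of 15 such markers, all were detected on both arrays, 12 lay below 0 and 3 above, with a median of -0.063. Their summed signal, taken at each gene's brightest probe and not scaled between arrays, was 317617 (heat) and 336989 (control). Tyms, which makes the thymidine nucleotide for DNA, was the lowest at -0.16, and Mki67 and Top2a differed by 0.068 and 0.088. The 4 probes of Top2a ran from -0.054 to 0.47, and its brightest had signals of 23146.5 (heat) and 24038.1 (control). The part of dividing cells in the repair gene values was not tested. In bulk RNA, fewer dividing cells and less RNA per cell cannot be told apart.

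The marker genes did not all match the labelled tissue, blood. All 10 monocyte and macrophage markers were detected, with summed signals, not scaled between arrays, of 607153 (heat) and 612980 (control). After scaling, 8 of these markers lay above 0 and 2 below, with a median difference of 0.070. All 15 markers of dividing cells were also detected. Cd79a and Ms4a1 of B cells and Alas2 and Hbb-b1 of red cells were not well above background on either array. Red cells had been lysed and globin transcripts depleted. Which cells the RNA came from was not tested. Of the other lists, 8 of 10 neutrophil, 6 of 9 T cell, 4 of 8 B cell, 2 of 6 NK cell, 2 of 8 erythroid and 2 of 6 platelet markers were detected on each array. The summed signals of these lists were also unscaled. Heat against control, they were 65117 and 67571 for neutrophils, 2494 and 2446 for T cells, and 29891 and 33633 for B cells. They were 125 and 225 for NK cells, 3353 and 4673 for erythroid cells and 12228 and 10458 for platelets. Single genes made up most of several sums, namely Blnk for B cells (29014 and 32778) and Csf3r for neutrophils (51463 and 52348). The same held for Cd4 in the T cell list (1447 and 1410), Tfrc in the erythroid list (3240 and 4557) and Pf4 in the platelet list (11483 and 9824). Among the NK markers, Prf1 had 46.0 (heat) and 152 (control). The part of these lists in the repair gene values was not tested.

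Other features of the member probes and promoters were described. Across the 68 usable probes, which share 2 arrays, Pearson's r with the difference was -0.061 for the probe's share of G and C and -0.018 for the control signal. Promoters, taken as 250 bases before to 50 after the start of transcription in RefSeq's GRCm38.p6 records, were found for 25 of the 31 genes. The median count of CG pairs was 22.5 in the member promoters, against 7 in all promoters of this length. Each motif was searched on both strands. The heat shock element was written as GAANNTTC or TTCNNGAA for 2 units, and its form with 3 units contains the shorter one. The shorter form occurred in 2 of 25 genes (8.0%), Ercc2 and Pms2, against 17.0% of all genes with a promoter, and the longer form in 0 of 25, against 0.66%. The CCAAT motif occurred in 15 of 25 (60%), against 41.1%, the E2F letters TTTGGCGC or TTTCGCGC only in Msh3, against 0.93%, and the NRF1 motif only in Lig4, against 1.07%. These are matches of letters and not known sites, and their relation to the heat values was not tested.

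Other processing left end joining the lowest role. It had the lowest median in each of the 12 settings tried, from -0.22 to -0.17, and Xrcc6 ranged from -0.22 to -0.19. Of the 30 genes, 21 kept 1 sign in every setting that measured them, 15 below 0 and 6 above. The 6 were Xpa, Ercc1, Ercc2, Ercc5, Xrcc1 and Chek2. Before scaling, no usable probe of Ercc1, Xrcc1 or Chek2 was brighter on the heat array. Their main values lay above 0 only after scaling, which added 0.039. Over the settings they were as low as 0.003, 0.018 and 0.013. The share of all genes that kept 1 sign was not computed, and every setting reprocesses the same 2 arrays. A gene can keep its sign while its probes disagree, as those of Ercc1 did (-0.013 and 0.038). With normexp background correction, which adds an offset and so shrinks dim values, Xrcc5 was -0.21 and Msh3 -0.061.

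**Figure D5:**
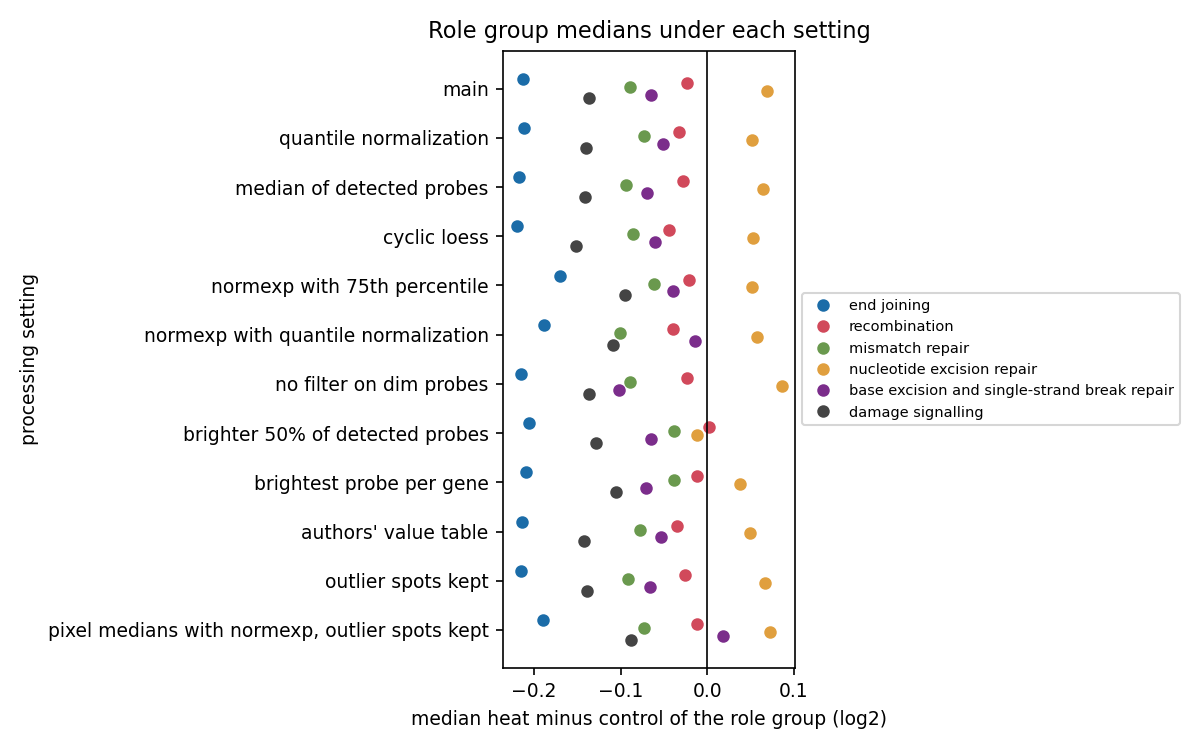
Median heat minus control (log2) of each role under the 12 processing settings, 1 row a setting and 1 colour a role. End joining lies leftmost in every row, and nucleotide excision repair lies right of 0 in all rows but that of the brighter 50% of probes.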

How the data were processed

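One-colour arrays were used, 1 for each group. Per the labels' protocols, blood RNA was freed of red cells and globin transcripts and a Cy3 dye was added. Agilent Feature Extraction 10.7.1.1 quantified the scans per the file headers, which give probe coordinates in mm9, whereas the submitters' processing notes name version 9.1. The deposited scanner files hold linear intensity values, namely a processed signal with its error, and pixel means, medians and local background. The authors' deposited value table holds log2 values with a median of 5.26 in each column, which followed quantile-normalized processed signals (r rounding to 1 on each array).

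Outlier spots (168 heat, 149 control) were left out and no spot was saturated. The main value is log2 of the processed signal minus the array's 75th percentile (604 and 620), over probes with more than 0.5 of their spots well above background on both arrays. Probes with several spots were averaged, then the probes of a gene name. All named genes are the 31 members, the highest and lowest of each role in the wider list (some are not reported here), and the listed cell type markers. Of 80 member probes, 55 had a RefSeq transcript record, each with the same symbol. The members and lists were chosen with earlier results of these data known. Depth is not defined for arrays, and the number of arrays limits the precision. Alternatives were quantile, median and cyclic loess scaling, normexp (offset 50), no dim filter, brighter probes, the brightest probe and the deposited table. R 4.3.3, limma 3.58.1, Python 3.11.15 and pandas 2.3.3 were used.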

Additional observations from a re-analysis of the deposited data

Results flagged for a closer look

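The Parp1 spot of the heat array was left out of the main values, and entered only the settings that kept outlier spots. It carried a processed signal of 6976, above the 2548 of the control array. It was singled out because it is a signal in data that the main comparisons did not use. With the pixel median in place of the mean, after normexp correction, the Parp1 difference was 0.024.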

How the results depend on the processing

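The repair list's median stayed below 0 under every alternative tried, between -0.077 and -0.017. The end joining, mismatch repair and damage signalling medians also stayed below 0, and mismatch repair was nearest to 0 at -0.039 with the brighter 50% of probes or the brightest probe. The base excision repair median was 0.019 with pixel medians, normexp and outlier spots kept, a setting that adds Parp1. With outlier spots kept, 1 repair gene, Parp1, was 2-fold apart. Both settings were chosen after seeing the data. The count of all genes at least 2-fold apart, 123, was 36 with normexp and the 75th percentile, 38 with normexp and quantile normalization, 40 with pixel medians, 17 among the brighter 50% of detected probes and 1735 with dim probes kept. With dim probes kept, all genes had a median of -0.099 with 64.1% below 0, so the repair list's median (-0.063) lay above that of the array, while its share below 0 (66.7%) was still the larger. Signs changed with some setting for 9 of 30 genes, namely Brca1, Rad50, Nbn, Xrcc2, Xrcc3, Pms2, Ercc4, Ung and Trp53bp1. The cause was not tested, and the share over all genes was not computed. The recombination and nucleotide excision repair medians changed sign among the brighter 50% of probes, to 0.002 and -0.012. No paired analysis was possible because each group held 1 array.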
